A study of Mus musculus with 22 samples.

Results

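The ephrins and EPH receptors described here are 10 genes, the ligand genes Efnb1, Efnb2, Efna1 and Efna5 and the receptor genes Ephb1, Ephb2, Ephb3, Ephb4, Epha2 and Epha4. They were taken by gene symbol from a table of raw read counts that lists 24454 genes, and all 10 were found. Of these, 7 passed the filter on low counts across the 22 libraries, and Efnb1, Ephb2 and Ephb3 did not. The libraries were bulk RNA-seq libraries made with SMART-Seq2, a full-length cDNA protocol, from pools of 25 cells sorted out of the aorta-gonad-mesonephros region (AGM) of C57BL/6 mouse embryos. The AGM is the tissue around the dorsal aorta in which endothelial cells give rise to haematopoietic stem and progenitor cells (HSPCs). Cells in every library had been sorted as positive for VE-cadherin and were divided by surface CD44 and Kit.

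The CD44Neg group, labelled endothelial cells, had 10 libraries, with 4 from E9.5, 3 from E10 and 3 from E11. The CD44LowKitNeg group, labelled hemogenic endothelial cells, had 6 libraries, with 1 from E9.5, 2 from E10 and 3 from E11. The CD44LowKitPos group, labelled Pre-HSPC, had 3 libraries, with 1 from E9.5 and 2 from E10, and the CD44High group, labelled HSPC, had 3 libraries, all from E11. The labels name no transgene or treatment for any of these groups. The labels number the libraries 1 to 22 and do not say whether 2 libraries of a group came from separate embryos, so the p-values measure only the spread between these libraries. Each stage carries its own date in the labels, so stage and date cannot be told apart.

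Ephrins are membrane-bound ligands of the EPH receptor tyrosine kinases, and because both partners sit in cell membranes they signal between touching cells in both directions. The A ephrins are held by a lipid anchor and the B ephrins span the membrane, and A receptors mainly bind A ephrins and B receptors mainly bind B ephrins, with EPHA4 able to bind both kinds. In the embryonic vasculature, ephrin-B2 (Efnb2) is the classical marker of arterial endothelium and its receptor EphB4 (Ephb4) is the classical marker of venous endothelium.

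Total counts ran from 3912350 to 8657546 per library with a median of 5758382.5, and the ribosomal RNA gene Rn45s took 1.92% to 23.9% of them. A count of 0 allowed a level of up to 0.348 to 0.816 CPM (counts scaled to library size) depending on the library, which covers counting error only. The labels were compared with their markers on the TMM-scaled CPM scale used below. Cd44 was 2.14 to 58.9 CPM in CD44Neg libraries and 158 to 354 CPM in the libraries of the other populations, and Kit was highest in CD44LowKitPos libraries at 174 to 270 CPM. The VE-cadherin gene Cdh5 was detected in all CD44Neg, CD44LowKitNeg and CD44LowKitPos libraries at 73.5 to 1158 CPM, and had no count in any of the 3 CD44High libraries. Those 3 libraries held all 7 macrophage markers examined (Csf1r, Adgre1, C1qa, C1qb, C1qc, Fcgr1 and Mrc1), at a summed 1306 to 3630 CPM against at most 39.3 CPM elsewhere. The CD44High values below are therefore those of the libraries labelled CD44High, and the part of macrophage transcripts in them was not tested. In all these pools, fewer expressing cells and less RNA per cell cannot be told apart.

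The sequences just upstream of Efnb2 and Ephb4 are shown because these are the ligand and receptor on which the results turn. On build GRCm38, Efnb2 lies on the minus strand at chr8:8617434-8661242 with 6855 exonic bases in GENCODE vM21, and Ephb4 lies on the plus strand at chr5:137350109-137378669 with 4640 exonic bases. Ephb4 shares 33 exonic bases with Zan on the opposite strand, and the strand setting of the counting is not given in the sources used here. Each sequence below, from RefSeq on GRCm38.p6, is the 250 bases before the annotated start, which lie before the first exon, read 5′ to 3′ on the gene's strand, with CG pairs in capitals. The Efnb2 window is chr8:8661243-8661492 and the Ephb4 window is chr5:137349859-137350108.
Efnb2: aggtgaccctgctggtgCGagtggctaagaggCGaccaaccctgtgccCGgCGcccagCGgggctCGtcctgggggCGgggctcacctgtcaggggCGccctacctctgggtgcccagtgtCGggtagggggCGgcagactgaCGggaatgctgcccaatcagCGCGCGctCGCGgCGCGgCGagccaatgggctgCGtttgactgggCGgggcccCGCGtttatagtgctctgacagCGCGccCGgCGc
Ephb4: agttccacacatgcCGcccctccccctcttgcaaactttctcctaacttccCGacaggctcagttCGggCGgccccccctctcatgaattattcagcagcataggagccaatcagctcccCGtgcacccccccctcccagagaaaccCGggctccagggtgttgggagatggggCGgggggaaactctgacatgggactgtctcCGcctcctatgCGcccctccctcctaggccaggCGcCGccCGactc
The Efnb2 window held 27 CG pairs at 72% GC, in the 91.4 percentile of 32851 mouse promoter windows of the same length. The Ephb4 window held 12 CG pairs at 64% GC, in the 66.5 percentile. The median window held 6 CG pairs at 52.4% GC. Core letters of 4 factor families were searched on both strands, TGGGAA for RBPJ (in 21.6% of all windows), CCGGAA for ETS factors (12%), ACAAAG for SOX factors (16.5%) and AGATAA for GATA factors (9.99%), and neither window held any of them.

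The members differed widely in level. Compared per kilobase of exon, Efna1, a GPI-anchored ligand of A receptors, was the highest member in CD44Neg libraries at 307 ± 90.5 CPM per kb (SD, n = 10). Ephb4 followed at 20.01 ± 8.42, Efnb2 at 15.3 ± 3.52, Epha2, a receptor for ephrin-A1, at 5.65 ± 2.68, Efna5, another GPI-anchored ligand, at 4.21 ± 2.64, and Epha4, the receptor with the broadest ligand range, at 0.860 ± 1.45 CPM per kb. The Ephb4 and Efnb2 ranges overlapped, as did those of Epha2 and Efna5, so neither pair was ordered beyond its spread, and Efna5 and Epha4 overlapped as well.

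In CD44LowKitNeg libraries the order was different. Efna1 was again first at 539 ± 176 CPM per kb (SD, n = 6), Efnb2 was next at 62.2 ± 11.6 and Ephb4 after it at 14.8 ± 6.48 CPM per kb. Every CD44LowKitNeg library was at 52.1 CPM per kb or more for Efnb2 and at 22.7 or less for Ephb4, so these 2 neighbours in the order did not overlap. Efna5 was at 4.87 ± 2.98, Epha4 at 3.23 ± 1.88 and Epha2 at 2.98 ± 1.07 CPM per kb, and their ranges overlapped. Efnb1, Ephb1, Ephb2 and Ephb3 were below 1 CPM per kb in every library of every population.

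**Figure D1:**
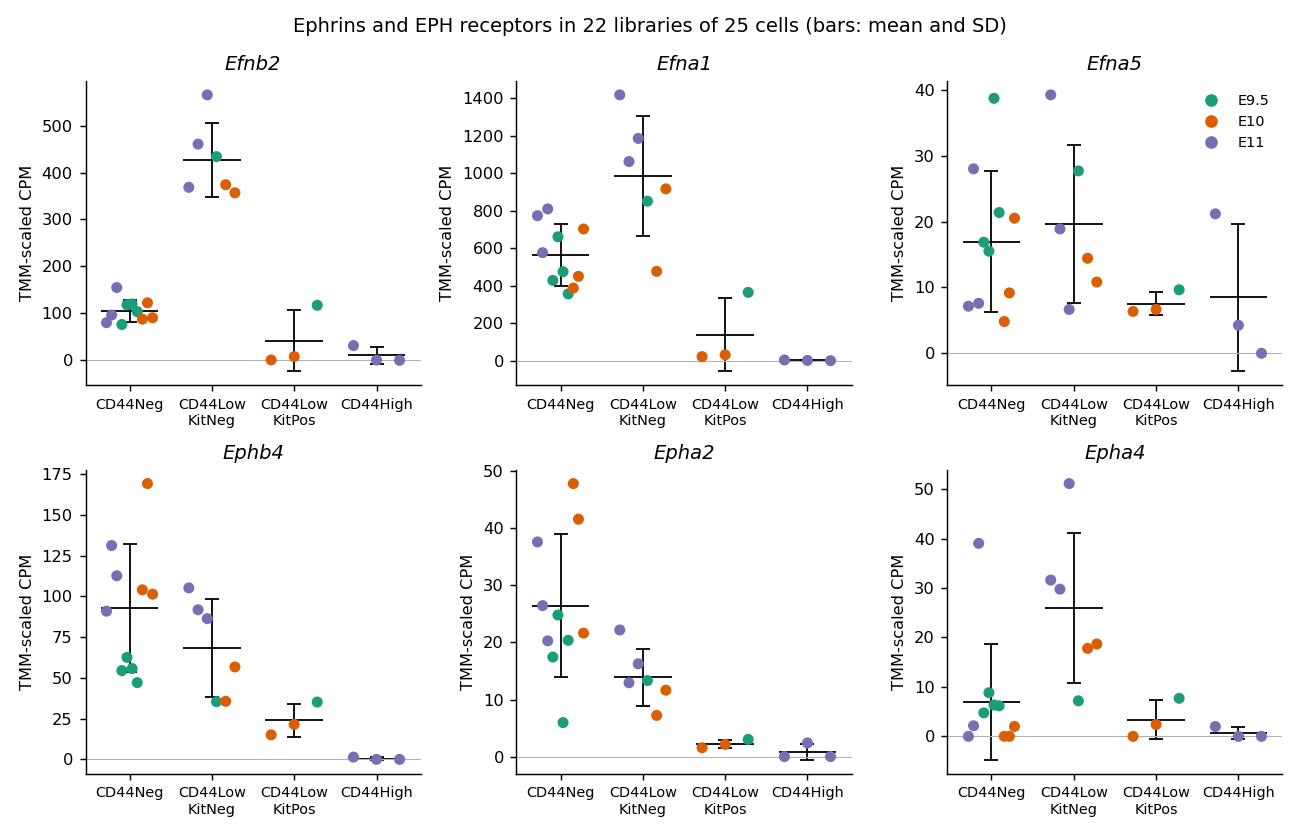
TMM-scaled CPM (vertical axes, linear, one scale per gene) of the 6 members with higher levels in 4 populations. Each point is 1 library coloured by stage, and black bars give the mean and SD. All 6 CD44LowKitNeg points lie above all CD44Neg points for Efnb2, the ranges overlap for the other 5 genes, and the 3 CD44High points lie near 0 for Efna1 and Ephb4.

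Summed over the ephrin genes of the table, ligand transcripts came to 223 to 476 CPM per kb in CD44Neg libraries (median 317) and 328 to 849 in CD44LowKitNeg libraries (median 613). Efna1 and Efnb2 together made up 93.9% to 97.8% of this sum in CD44Neg libraries and 96.0% to 98.2% in CD44LowKitNeg libraries. Receptor transcripts summed to far less, at 14.7 to 48.2 CPM per kb (median 27.7) in CD44Neg libraries and 12.5 to 32.2 (median 23.1) in CD44LowKitNeg libraries. Ephb4 was the largest receptor in each of these 16 libraries, with 63.1% to 81.6% of the receptor sum in the CD44Neg group and 53.6% to 70.5% in the CD44LowKitNeg group. Of the 2 ligands, Efna1 was the larger, with means of 307 CPM per kb in CD44Neg and 539 in CD44LowKitNeg libraries against 15.3 and 62.2 for Efnb2. Most ligand transcripts were thus those of Efna1 and most receptor transcripts those of Ephb4. The CD44Neg and CD44LowKitNeg ranges overlapped for both sums. In the 3 CD44LowKitPos libraries (replicates 17, 18 and 19) the ligand sum was 14.6, 24.2 and 223 CPM per kb. In the 3 CD44High libraries (replicates 20, 21 and 22) it was 13.8, 5.67 and 0 CPM per kb. The receptor sum in these 3 was 8.70, 2.19 and 0.124 CPM per kb, with Ephb4 at 3.43%, 0% and 0% of it.

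**Figure D2:**
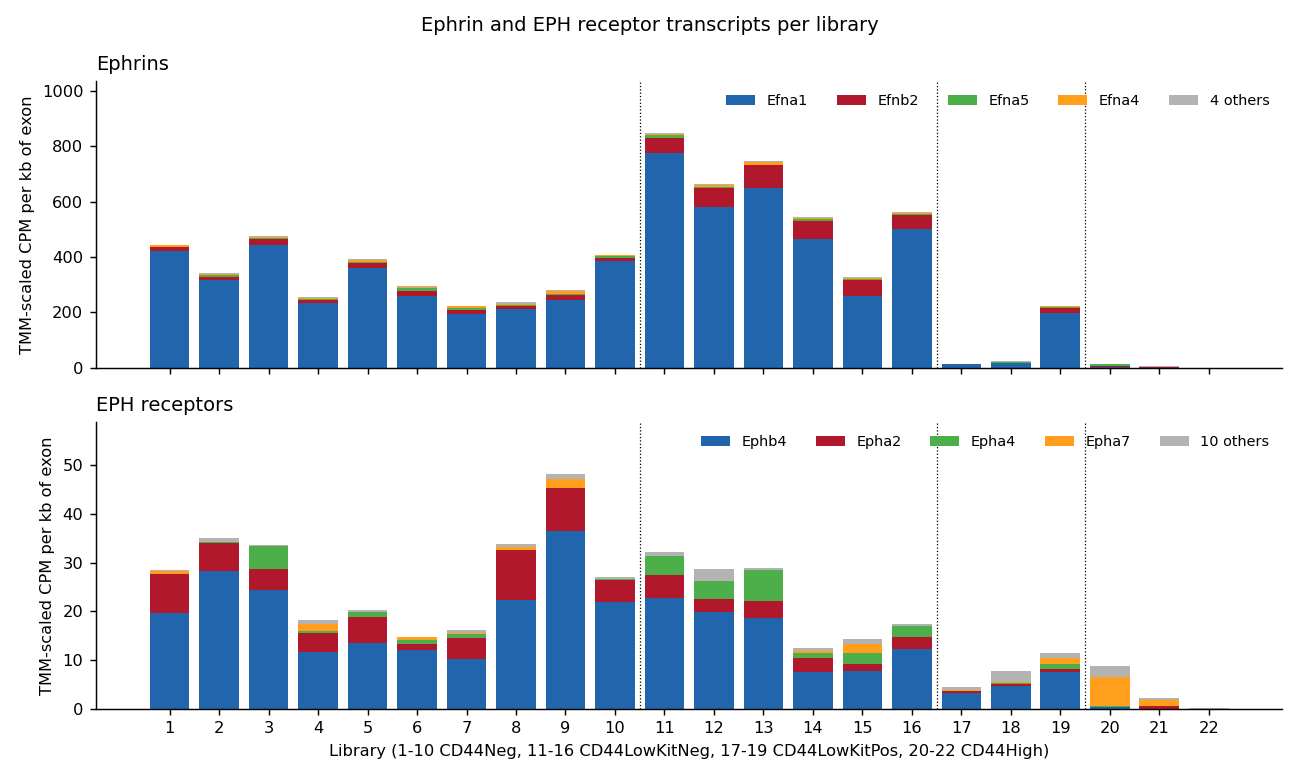
Ephrin (top) and EPH receptor (bottom) transcripts stacked for each of the 22 libraries in TMM-scaled CPM per kb of exon, with a separate vertical scale for each panel and dotted lines between populations. Efna1 fills most of the ephrin bars, with a larger Efnb2 segment in the CD44LowKitNeg libraries (11 to 16), and Ephb4 fills most of the receptor bars of libraries 1 to 19.

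The comparison of CD44LowKitNeg with CD44Neg libraries asks which genes separate the labelled hemogenic endothelium from the CD44Neg endothelium. The study describes CD44LowKitNeg cells as arterial and CD44Neg cells as carrying both arterial and venous markers. It proposes that part of the CD44Neg cells came from the cardinal veins, which stay in the dissected AGM. Blood-forming state and vessel type therefore cannot be told apart here. Efnb2, the transmembrane ligand of Ephb4, was the member that rose. Its level was 76.4 to 155 CPM (median 100.1) in the 10 CD44Neg libraries and 357 to 565 CPM (median 404) in the 6 CD44LowKitNeg libraries. Every CD44LowKitNeg library was above every CD44Neg library. The means were 105 ± 24.1 CPM (SD, n = 10) and 427 ± 79.3 CPM (SD, n = 6), a log2 fold change of 2.03 (SE 0.16), or 4.07-fold, with an adjusted p of 4.22e-07 by edgeR's quasi-likelihood test. Of the 6 members tested, 1 was called at an adjusted p under 0.01, against 10.2% of the 11022 genes tested called in either direction and 4.94% called higher. Groups that did not overlap, with every CD44LowKitNeg library higher, were found for 1 of 6 members and for 2.5% of the genes tested.

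The Efnb2 difference was also measured within stages. At E11 alone, with 3 libraries in each group, its log2 fold change was 2.13 with an adjusted p of 0.00248 by edgeR's quasi-likelihood test. At E10 alone, with 3 CD44Neg and 2 CD44LowKitNeg libraries, it was 1.94 with an adjusted p of 0.023, past 0.01, and E9.5 held 1 CD44LowKitNeg library, at 434 CPM against 76.4 to 120 CPM in the 4 CD44Neg libraries of that stage. Leaving out each of the 16 libraries in turn gave 1.93 to 2.11, called each time. When the spread was estimated from all 22 libraries, the log2 fold change was 2.02 and the adjusted p 0.024, so the call was lost while the size was kept.

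Efna1 was also higher in most CD44LowKitNeg libraries, and its call turned on the setting. It measured 356 to 810 CPM (median 526) in CD44Neg libraries and 477 to 1419 CPM (median 990.1) in CD44LowKitNeg libraries. The ranges overlapped, with CD44LowKitNeg replicate 15, from E10, below the CD44Neg median and the other 5 above all CD44Neg libraries. The log2 fold change was 0.82 (SE 0.22) with an adjusted p of 0.0107 in edgeR's quasi-likelihood test, just past the 0.01 threshold. Leaving out CD44Neg replicate 1, 3 or 10 or CD44LowKitNeg replicate 15 gave adjusted p-values of 0.00901, 0.00676, 0.0091 and 0.00227. DESeq2's Wald test gave 0.00112, limma voom 0.00882, edgeR with DESeq2 size factors 0.00757, with no filter on low counts 0.00934 and with stage as a covariate 0.00952, at a log2 fold change of 0.67. The E11 libraries alone gave a log2 fold change of 0.82 with an edgeR adjusted p of 0.0185. With the E10 libraries alone, where CD44LowKitNeg replicate 15 lay within the CD44Neg range of 388 to 703 CPM, it was 0.51 with 0.501, and with all 22 libraries in 1 fit it was 0.81 with 0.2.

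None of the receptors was called between the 2 endothelial populations. Ephb4 measured 47.1 to 169 CPM (median 96.1) in CD44Neg libraries and 35.4 to 105 CPM (median 71.5) in CD44LowKitNeg libraries, and these ranges overlapped over all stages together. Within E9.5, the 1 CD44LowKitNeg library, at 35.4 CPM, was below the 4 CD44Neg libraries at 47.1 to 62.5 CPM, and within E10 the CD44LowKitNeg libraries, at 35.6 and 56.7 CPM, were below the CD44Neg libraries at 101 to 169 CPM. At E11 the ranges of 86.3 to 105 CPM and 90.9 to 131 CPM overlapped. The Ephb4 log2 fold change over all stages was -0.43 (SE 0.31) with an edgeR adjusted p of 0.362. It was -0.72 with an adjusted p of 0.0235 with stage as a covariate, -1.36 with 0.12 at E10 alone and -0.18 with 0.698 at E11 alone, so its size depended on how stage was treated and no edgeR fit called it.

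The A receptors were lower in level than Ephb4. Epha2 measured 5.96 to 47.9 CPM (median 23.2) in CD44Neg libraries and 7.22 to 22.2 CPM (median 13.1) in CD44LowKitNeg libraries, with a log2 fold change of -0.91 (SE 0.39) and an edgeR adjusted p of 0.103. All 6 CD44LowKitNeg libraries were below the CD44Neg median for Epha2, but inside the CD44Neg range. At E10 the groups did not overlap, at 7.22 and 11.6 CPM against 21.6 to 47.9 CPM, with a log2 fold change of -1.89 and an adjusted p of 0.169, and at E11 alone it was -0.65 with 0.469. Epha4 measured 0 to 39.0 CPM (median 3.44) in CD44Neg libraries, 3 of which had no Epha4 count, and 7.19 to 51.1 CPM (median 24.2) in CD44LowKitNeg libraries. All 6 CD44LowKitNeg libraries lay above the CD44Neg median, and CD44Neg replicate 3, at 39.0 CPM, lay apart from the other 9, which were at 8.83 CPM or less. The Epha4 log2 fold change was 1.91 (SE 0.90) with an edgeR adjusted p of 0.147, and it was 2.95 with 0.0179 without CD44Neg replicate 3, 1.49 with 0.529 at E11 alone, 4.78 with 0.207 at E10 alone and 3.38 with 0.0143 by limma voom.

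The remaining ligands were low. Efna5 measured 4.83 to 38.7 CPM (median 16.2) in CD44Neg libraries and 6.66 to 39.3 CPM (median 16.7) in CD44LowKitNeg libraries, nearly the same range, with a log2 fold change of 0.22 (SE 0.47) and an edgeR adjusted p of 0.805. Efnb1, a transmembrane ligand like Efnb2, had counts in 3 of 10 CD44Neg, 1 of 6 CD44LowKitNeg, 0 of 3 CD44LowKitPos and 2 of 3 CD44High libraries and reached at most 2.94 CPM. Of the B receptors other than Ephb4, Ephb1 had counts in 6 of 10 CD44Neg and 2 of 6 CD44LowKitNeg libraries with a highest value of 6.26 CPM, Ephb2 had counts in 4 and 2 of them with a highest value of 2.40 CPM over all libraries, and Ephb3 in 2 and 2 with a highest value of 1.34 CPM. In the CD44LowKitPos libraries Ephb1 and Ephb2 each had counts in 1 of 3, in the CD44High libraries Ephb2 had counts in 1 of 3, and Ephb3 had none in either. Levels this near the floor of a 0 count carried no comparison between the 2 populations. The median log2 fold change of the 6 members tested was 0.52, against 0.01 over all genes tested.

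**Figure D3:**
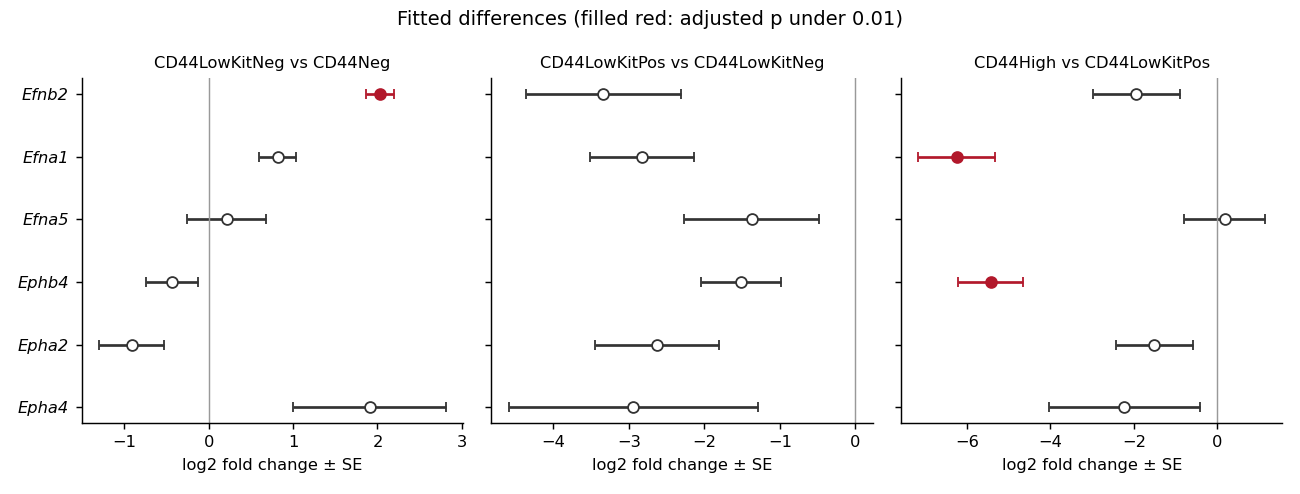
Log2 fold change with its standard error for 6 members in 3 comparisons between populations, each panel with its own horizontal axis, and filled red points for an edgeR adjusted p under 0.01. Efnb2 is the filled point at 2.03 in CD44LowKitNeg against CD44Neg, no point is filled in CD44LowKitPos against CD44LowKitNeg, and Efna1 and Ephb4 are filled in CD44High against CD44LowKitPos.

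Other markers moved with the Efnb2 difference. Summed over 5 endothelial markers, the level was 1337 to 3080 CPM in CD44Neg libraries and 2116 to 5050 CPM in CD44LowKitNeg libraries, with Cdh5 and Tek called higher. Of 6 neural markers, 2 (Tubb3 and Stmn2) had counts in CD44LowKitNeg libraries, and their sum of 111 to 683 CPM lay above the 20.7 to 107 CPM of the list in CD44Neg libraries. Sox2, Elavl3, Sox10 and Foxd3 had no count in any CD44LowKitNeg library, and Stmn2, the 1 gene of the list that was tested, was called higher (log2 fold change 2.48). The summed blood markers were 4.49 to 229 CPM (median 42.3) against 0 to 32.8 CPM (median 5.88), with Spi1 called higher. The epithelial markers summed to 26.5 to 87.2 CPM (median 42.4) against 0 to 33.5 CPM (median 3.20) and the mesenchymal markers to 2.03 to 76.2 CPM (median 22.6) against 0 to 27.2 CPM (median 1.09). For these 3 lists the ranges overlapped, and neither of the last 2 had a called gene. Cdh1 was at 0 in CD44Neg and Epcam in CD44LowKitNeg libraries, and Col1a1 and Lum in both. The part of these transcripts in the Efnb2 difference was not tested.

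Because Efnb2 and Ephb4 encode a ligand and its receptor, their ratio per kilobase of exon was taken in each library as a description. It was 0.491 to 1.49 (median 0.770) in CD44Neg libraries and 2.37 to 8.31 (median 4.35) in CD44LowKitNeg libraries, so the 2 groups did not overlap. Within the CD44Neg group the ratio was 0.950 to 1.49 at E9.5, 0.491 to 0.607 at E10 and 0.498 to 0.933 at E11. Within the CD44LowKitNeg group it was 8.31 at E9.5, 4.26 and 7.12 at E10 and 2.37 to 4.44 at E11. At each stage the CD44LowKitNeg libraries were above the CD44Neg libraries, and in both groups the E9.5 libraries were above those of E11. In CD44LowKitPos replicates 17, 18 and 19 the ratio was 0.0419, 0.256 and 2.26.

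**Figure D4:**
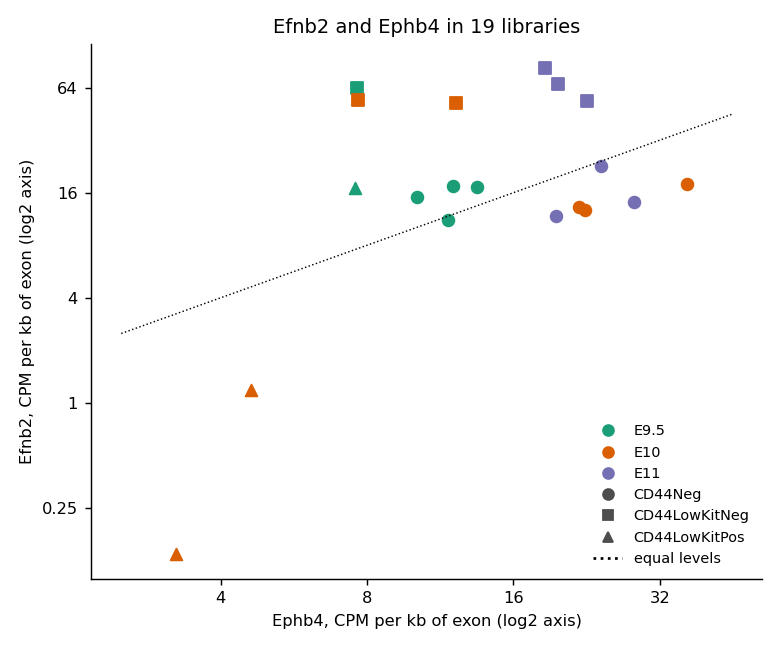
Efnb2 (vertical) against Ephb4 (horizontal) in 19 libraries, both in CPM per kb of exon on log2 axes, with 1 point per library, its shape giving the population, its colour the stage and a dotted line marking equal levels. The 3 CD44High libraries are left out because 2 of them had no Ephb4 count, the 6 CD44LowKitNeg squares lie above the line, and the CD44Neg circles of E10 and E11 lie below it.

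The next comparison, of CD44LowKitPos with CD44LowKitNeg libraries, follows the labelled step from hemogenic endothelium to Pre-HSPC, and 4 members were lower in all 3 CD44LowKitPos libraries without being called. Efnb2 measured 0.931, 8.14 and 117 CPM in CD44LowKitPos replicates 17, 18 and 19. Efna1 measured 21.4, 31.2 and 365 CPM in the same libraries. Replicate 19, the only one from E9.5, was the highest of the 3 for both ligands, yet it was below the lowest CD44LowKitNeg library, which had 357 CPM of Efnb2 and 477 CPM of Efna1. Ephb4 measured 15.04, 21.5 and 35.1 CPM, all under the lowest CD44LowKitNeg value of 35.4 CPM, but at E9.5 the single libraries of the 2 groups were nearly equal, at 35.1 and 35.4 CPM. Epha2 measured 1.55, 2.13 and 3.02 CPM in ascending order, all under the lowest CD44LowKitNeg value of 7.22 CPM.

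By edgeR's quasi-likelihood test over 22 libraries, 0 of 7 members tested were called, and 4.26% of the 12949 genes tested were called. At an unadjusted p under 0.05 there were 4 members, and DESeq2's Wald test called 4. Groups that did not overlap, with every CD44LowKitPos library lower, were found for 4 of 7 members and for 7.35% of the genes tested. The log2 fold changes were -2.83 (SE 0.69) for Efna1 with an adjusted p of 0.01003, -3.34 (SE 1.03) for Efnb2 with 0.0337, -2.63 (SE 0.82) for Epha2 with 0.0359 and -1.52 (SE 0.53) for Ephb4 with 0.0595. Efna5, Epha4 and Ephb1 had edgeR adjusted p-values of 0.34, 0.258 and 0.731.

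The calls in this comparison depended on single libraries. Without CD44LowKitPos replicate 19 the log2 fold change was -6.56 for Efnb2 (edgeR adjusted p 0.00103) and -5.25 for Efna1 (adjusted p 1.63e-05). Leaving out CD44LowKitNeg replicate 14 or 15, or CD44High replicate 20 or 22, also called Efna1, with adjusted p-values of 0.009999, 0.00873, 0.00938 and 0.00799. Without CD44High replicate 20, Efnb2 had an adjusted p of 0.00897, and without CD44High replicate 21, Epha2 had one of 0.00852. A fit without the CD44High libraries, chosen after the data were seen, called Efna1, Efnb2 and Epha2 with adjusted p-values of 0.00759, 0.00832 and 0.00631. CD44LowKitPos had no E11 library. With the E9.5 and E10 libraries alone none of the 4 was called, at log2 fold changes of -3.26 for Efnb2 (edgeR adjusted p 0.212), -2.48 for Efna1 (0.218), -2.30 for Epha2 (0.179) and -0.88 for Ephb4 (0.32). The summed endothelial markers were also lower, at 417 to 915 CPM in CD44LowKitPos libraries with the highest sum in replicate 19. The summed blood markers were higher, at 369 to 763 CPM against 4.49 to 229 CPM with no overlap, and Ptprc and the macrophage marker Csf1r were called higher. The part of these transcripts in the differences was not tested.

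CD44LowKitPos libraries were also compared with CD44Neg libraries. Epha2 was the 1 member of 7 called, lower with a log2 fold change of -3.55 (SE 0.84) and an edgeR adjusted p of 0.00917, where 3.48% of genes were called in either direction and 1.41% called lower. It lost the call with stage as a covariate (adjusted p 0.0153), with no filter on low counts (0.0101) and in 16 of 22 fits that left out 1 library, with log2 fold changes of -3.83 to -3.35 over the 22 fits. The adjusted p was 0.0714 without CD44LowKitPos replicate 17, 0.0661 without replicate 18 and 0.0207 without replicate 19, and 0.0104 to 0.0158 without CD44Neg replicate 1, 2, 3, 4, 5, 7, 8, 9 or 10 or CD44LowKitNeg replicate 12, 13, 14 or 16. Ephb4 and Epha2 did not overlap between the groups, 2 of 7 members, against 4.37% of genes with every CD44LowKitPos library lower. Ephb4 had a log2 fold change of -1.96 (SE 0.52) and an adjusted p of 0.0198, which was 0.00853 without CD44High replicate 20. Efna1, at -2.02 (SE 0.64), and Efnb2, at -1.32 (SE 0.87), had edgeR adjusted p-values of 0.0545 and 0.433. Without CD44LowKitPos replicate 19 these were -4.42 with an adjusted p of 3.98e-05 and -4.51 with 0.00719, so that 1 library decided both calls. Other markers moved with this comparison. The blood markers summed to 369 to 763 CPM against 0 to 32.8 CPM, with Itgb3, Myb, Ptprc and Spi1 called higher, and the epithelial markers to 64.5 to 74.2 CPM against 0 to 33.5 CPM, neither with overlap. All 5 venous genes and Kdr were called lower, and the macrophage marker Csf1r was called higher. The endothelial markers summed to 417 to 915 CPM against 1337 to 3080 CPM, also without overlap. The part of these markers in the Epha2 and Ephb4 values was not tested.

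In the libraries labelled CD44High, Efna1 and Ephb4 were lower still. Efna1, at 3.76, 1.33 and 0 CPM in replicates 20, 21 and 22, was below every CD44LowKitPos library. Ephb4, at 1.39, 0 and 0 CPM, was too. Efnb2, at 31.5, 0.533 and 0 CPM, overlapped with CD44LowKitPos, because replicate 20 was above CD44LowKitPos replicates 17 and 18. Replicate 20 also had the highest summed mesenchymal markers of all libraries, at 205 CPM. Replicate 21 was next with 109 CPM, and replicate 22 had 0.272 CPM. The part of these transcripts in the Efnb2 values was not tested. Of 7 members, 2 were called lower against CD44LowKitPos, where 3.01% of genes were called in either direction and 2.23% lower. Efna1 had a log2 fold change of -6.25 (SE 0.92) and an edgeR adjusted p of 7.17e-05, and Ephb4 one of -5.44 (SE 0.79) and 5.75e-05. These 2 of 7 members also did not overlap, as for 12% of genes with every CD44High library lower. Both were called in all 22 fits that left out 1 library, but their size moved. Efna1 was at -3.84 without CD44LowKitPos replicate 19 and at -7.78 without CD44High replicate 20, and Ephb4 at -10.13 without CD44High replicate 20, which held the only Ephb4 counts of that group. All 5 endothelial markers (Cdh5, Kdr, Pecam1, Tek and Tie1) were called lower too, with a median log2 fold change of -5.77 and a sum of 11.9 to 60.2 CPM against 417 to 915 CPM, and their part in the lower members was not tested.

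Efnb2, in contrast, was decided by single libraries in that comparison. Its log2 fold change of CD44High against CD44LowKitPos was -1.94 (SE 1.05) with an edgeR adjusted p of 0.353. Without CD44High replicate 20 it was -7.31 and called (adjusted p 0.00304), and without CD44LowKitPos replicate 19 it was 1.26. Epha2, at 0, 2.40 and 0 CPM in CD44High libraries, had a log2 fold change of -1.51 (SE 0.93) with an adjusted p of 0.436, and without CD44High replicate 21 it was -6.74 with 0.00336. Efna5, at 21.2, 4.26 and 0 CPM, and Epha4, at 1.98, 0 and 0 CPM, had edgeR adjusted p-values of 0.976 and 0.602.

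Against CD44LowKitNeg, the CD44High libraries were lower in 4 of 7 members, where 16% of genes were called in either direction and 8.17% lower. These were Efna1 (log2 fold change -9.07, SE 0.998, edgeR adjusted p 4.32e-07), Ephb4 (-6.95, SE 0.79, 6.56e-07), Efnb2 (-5.28, SE 1.16, 0.00139) and Epha2 (-4.14, SE 0.93, 0.0018). Those 4 and Epha4, 5 of 7 members, did not overlap, against 11.7% of genes with every CD44High library lower. Epha4 had a log2 fold change of -5.17 (SE 1.92) and an adjusted p of 0.0482. Epha2 lost its call without CD44High replicate 22 (adjusted p 0.01004), and with the E11 libraries alone only Efna1 and Ephb4 were called, at -9.49 and -7.54. Without CD44High replicate 20, Efna1 was at -10.60, Ephb4 at -11.68 and Efnb2 at -10.64, and without replicate 21 Epha2 was at -9.39. All 5 endothelial markers were again called lower, with a median of -8.36.

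Against CD44Neg, which shares the same CD44High libraries, 3 of 7 members were called lower, where 14.4% of genes were called in either direction and 7.25% lower. Efna1 had a log2 fold change of -8.26 (SE 0.96, edgeR adjusted p 7.88e-07), Ephb4 one of -7.39 (SE 0.79, 2.49e-07) and Epha2 one of -5.06 (SE 0.96, 0.000333). With the E11 libraries alone, the stage of all CD44High libraries, Efna1 and Ephb4 were called and Epha2 was not (log2 fold change -5.20, adjusted p 0.0219). Without CD44High replicate 20, Efna1 was at -9.75 and Ephb4 at -12.07, and without replicate 21 Epha2 was at -10.27. All 5 endothelial markers were called lower here as well, with a median of -6.96. Efnb2, at -3.26 (SE 1.01) with an adjusted p of 0.0207, was called without CD44High replicate 20 (-8.58, adjusted p 0.00017) or CD44LowKitPos replicate 17 (0.0075) or 19 (0.00446). Those 4 did not overlap, 4 of 7 members, against 9.12% of genes. The log2 changes of genes with few counts in CD44High depend on the small count added in the fit and are not bounds.

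Stage was compared inside the 2 endothelial populations. Ephb4, the venous receptor gene, was higher after E9.5 in the CD44Neg libraries, though it was not called. It measured 47.1 to 62.5 CPM in the 4 E9.5 libraries, 101 to 169 CPM in the 3 E10 libraries and 90.9 to 131 CPM in the 3 E11 libraries. All 6 later libraries were above all 4 E9.5 libraries, and E10 and E11 overlapped. The means were 54.9 ± 6.33 CPM (SD, n = 4), 125 ± 38.4 CPM (SD, n = 3) and 112 ± 20.2 CPM (SD, n = 3).

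For E11 against E9.5 the Ephb4 log2 fold change was 1.04 (SE 0.24) with an edgeR adjusted p of 0.0283, and for E10 against E9.5 it was 1.20 (SE 0.24) with an adjusted p of 0.0329. In E11 against E9.5, 0 of 7 members were called by edgeR, 2 (Efna1 and Ephb4) had an unadjusted p under 0.05 and DESeq2 called 1, Ephb4, with an adjusted p of 0.00289. Here 0.684% of genes were called, and 9.86% of genes did not overlap with every E11 library higher, as Ephb4 did. In E10 against E9.5, 0 of 7 were called by edgeR, 2 (Ephb4 and Epha2) had an unadjusted p under 0.05, and DESeq2 called Ephb4 with 0.000714, where edgeR called 0.0178% of genes. Ephb4 was among the 7.36% of genes with every E10 library higher than every E9.5 library, and Epha4 among the 7.87% with every E10 library lower. In E11 against E10, 0 of 7 members and 0% of genes were called by edgeR, 1 member (Epha4) had an unadjusted p under 0.05 and DESeq2 called 0 members. These comparisons share their E9.5, E10 and E11 libraries in pairs. The endothelial markers Pecam1, at 1096 to 1211 CPM against 349 to 445 CPM, and Tie1, at 205 to 328 CPM against 107 to 157 CPM, were called higher at E11 than at E9.5 in CD44Neg libraries. The summed endothelial markers were 1337 to 1728 CPM at E9.5, 2239 to 2334 CPM at E10 and 2368 to 3080 CPM at E11. Rn45s took 1.92% to 13.8% of counts at E9.5 and 15.2% to 17.9% at E11, with 9.11% to 19.3% at E10, and the summed neural markers were 20.7 to 52.3 CPM at E9.5, 23.9 to 49.98 CPM at E10 and 65.5 to 107 CPM at E11. The summed epithelial markers were 3.73 to 33.5 CPM at E9.5, 0 to 6.71 CPM at E10 and 0 to 1.95 CPM at E11. The part of these measures in the Ephb4 values was not tested.

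Among CD44LowKitNeg libraries Ephb4 was at 35.4 CPM at E9.5, at 35.6 and 56.7 CPM at E10 and at 86.3 to 105 CPM at E11. Every E11 library was above every earlier one, as was so for Efna1, at 1063 to 1419 CPM against 477 to 917 CPM, and for Epha4. Of the 6 members tested, 3 thus did not overlap, against 11.9% of genes with every E11 library higher. None of the 6 was called by edgeR or DESeq2, 3 had an unadjusted p under 0.05, and 0.173% of genes were called by edgeR. The log2 fold changes of E11 against E9.5 and E10 were 1.19 (SE 0.32) for Ephb4 with an edgeR adjusted p of 0.0965, 0.75 (SE 0.25) for Efna1 with 0.169 and 1.41 (SE 0.55) for Epha4 with 0.236. Efnb2, at 357 to 434 CPM before E11 and 369 to 565 CPM at E11, overlapped between stages and had a log2 fold change of 0.31 (SE 0.21) with 0.554.

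Other measures moved with stage in these 6 libraries. The summed endothelial markers were 4717 to 5050 CPM at E11 and 2116 to 3041 CPM before, with 0 of 5 called. The summed blood markers were 4.49 to 7.13 CPM at E11 and 77.5 to 229 CPM before, and Runx1, the transcription factor needed for blood formation from endothelium, was called lower, with no count at E11 and 44.8 to 129 CPM before (edgeR adjusted p 0.00759). Rn45s took 17.4% to 19.2% of counts at E11 and 7.29% to 11.1% before, and the summed mesenchymal markers were 29.2 to 76.2 CPM at E11 and 2.03 to 15.996 CPM before. None of these ranges overlapped, and their part in the Ephb4, Efna1 and Epha4 values was not tested.

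A test of whether the CD44LowKitNeg difference itself changed between E10 and E11, fitted on 11 libraries, called 0 of 7 members and 0.00806% of genes by edgeR. DESeq2 called 0 members, and 1 member, Ephb4, had an unadjusted p under 0.05. The interaction was 1.17 (SE 0.42) on the log2 scale for Ephb4, with an edgeR adjusted p of 0.339, and 0.19 (SE 0.38) for Efnb2, with 0.945.

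**Figure D5:**
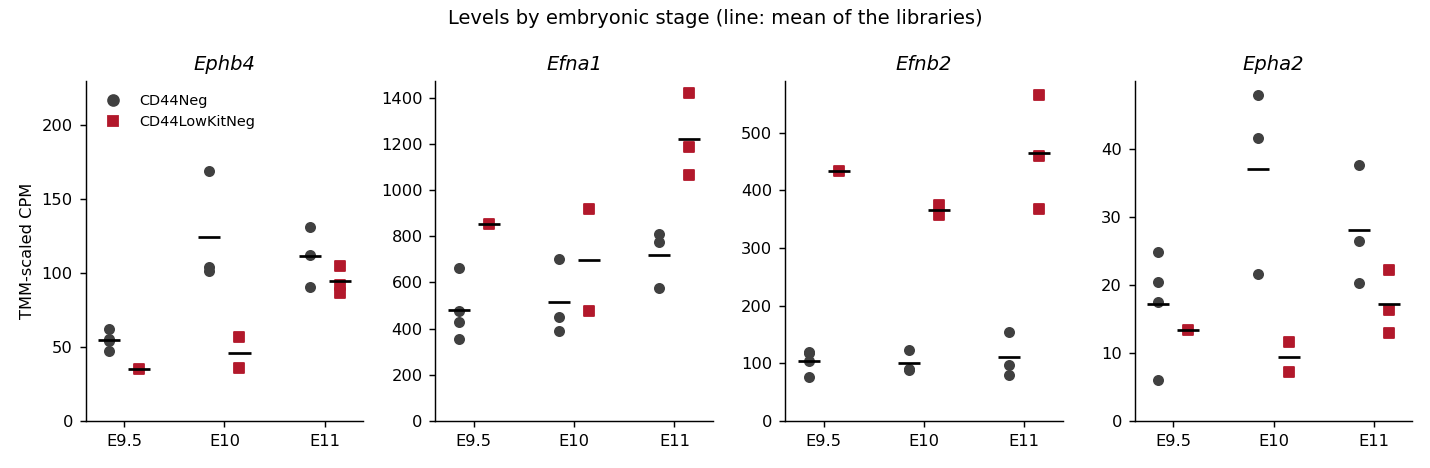
TMM-scaled CPM of Ephb4, Efna1, Efnb2 and Epha2 by embryonic stage in CD44Neg (circles) and CD44LowKitNeg (squares) libraries, with 1 point per library, a line for the mean and a separate vertical scale for each gene. Efnb2 separates the populations at each stage, and the Ephb4 points of E9.5 lie below those of E11 in both.

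The other 12 ephrins and EPH receptors of the table were low in the 2 endothelial populations. Efna4, a further GPI-anchored ligand, measured 4.36 to 18.6 CPM in CD44Neg and 6.36 to 15.03 CPM in CD44LowKitNeg libraries, ranges that overlapped, with a log2 fold change of 0.24 (SE 0.43) and an edgeR adjusted p of 0.755. Epha7, an A receptor, was at 0 to 19.3 CPM in these 2 groups and reached 58.2, 13.3 and 0.544 CPM in CD44High replicates 20, 21 and 22. In replicate 20 this was 5.89 CPM per kb of a receptor sum of 8.70. Epha6, Epha8 and Epha10 had no count in any library, and Efna2, Efna3, Efnb3, Epha1, Epha3, Epha5 and Ephb6 stayed under a mean of 10 CPM in every population.

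Genes that act with the family were taken from lists. Between CD44LowKitNeg and CD44Neg libraries, 1 of 17 tested receptor effectors was called, against 10.2% of all genes. This was Rasa1, the Ras GTPase activating protein that binds activated EphB receptors, which rose, at 110 to 288 CPM against 44.0 to 104 CPM with no overlap, with a log2 fold change of 1.44 (SE 0.21) and an edgeR adjusted p of 0.00012. Of 6 shedding proteases 1 was called, Adam10, a metalloprotease that cleaves ephrins, at 608 to 864 CPM against 258 to 638 CPM, with a log2 fold change of 1.13 (SE 0.17) and an adjusted p of 0.000161. Of 4 Src family kinases 1 was called, Lyn, which fell, at 29.1 to 65.6 CPM against 55.0 to 130 CPM, with a log2 fold change of -1.01 (SE 0.21) and an edgeR adjusted p of 0.00227. Rasa1 and Lyn lost their calls within stages, with adjusted p-values of 0.0411 and 0.0456 at E11 alone and 0.0416 and 0.251 at E10 alone, while Adam10 was called at E11 alone (0.00578) and not at E10 alone (0.0348). Over all settings other than leaving out a library, log2 fold changes were 1.37 to 1.75 for Rasa1, -1.19 to -0.95 for Lyn and 1.12 to 1.45 for Adam10. None of the 6 tested partners of the ephrin-B cytoplasmic tail was called. The median log2 fold changes of these 4 lists were -0.12, 0.16, -0.02 and 0.67, against 0.01 over all genes tested.

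Efnb2 and Ephb4 were kept out of the lists of arterial and venous genes, so that these describe the vessel identity of the groups apart from the members. Over all genes tested, 10.2% were called in either direction and 4.94% were called higher. Of 14 arterial genes, 7 were called higher in CD44LowKitNeg and none lower, with a list median of 1.62. They included the Notch ligand Jag1, at 496 to 1068 CPM against 33.6 to 175 CPM (log2 fold change 3.18, SE 0.29, edgeR adjusted p 8.04e-07). They also included the semaphorin and VEGF co-receptor Nrp1 (1.53, SE 0.15, adjusted p 2.6e-06), the gap junction gene Gja5 (2.49, SE 0.29, adjusted p 1.05e-05), Bmx, Gja4, Hey1 and Hey2. Of 5 venous genes, 4 were called lower and none higher, with a median of -4.01. These were Flt4 (-1.93, SE 0.24, edgeR adjusted p 1.71e-05), Nrp2 (-5.30, SE 0.81, 0.000156, and -6.14 without CD44LowKitNeg replicate 14), the apelin receptor Aplnr (-4.48, SE 1.01, 0.00372, and -6.58 without CD44LowKitNeg replicate 16) and Nr2f2, the transcription factor of venous identity. With E11 alone Jag1, Nrp1, Gja5, Flt4, Nrp2 and Aplnr were each called in the same direction, Aplnr at -10.45 and Nrp2 with no count in the CD44LowKitNeg libraries of that stage, and with E10 alone, with 5 libraries, none of the 6 was, at edgeR adjusted p-values of 0.0134 to 0.0564. Nrp1 also lost its call with all 22 libraries in 1 fit (adjusted p 0.0375). Over all settings other than leaving out a library, the 6 kept their direction. Log2 fold changes were 2.81 to 4.09 for Jag1, 1.32 to 1.82 for Nrp1 and 1.57 to 2.97 for Gja5. They were -2.68 to -1.84 for Flt4, -12.43 to -5.07 for Nrp2 and -10.45 to -3.16 for Aplnr. Several of these genes are ones that the study itself picked out in these samples, so the lists are not independent evidence of the direction. Ephb4, given above, was not called between the groups.

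Between CD44LowKitPos and CD44LowKitNeg libraries, where 4.26% of all genes were called, the signalling genes called were all lower. They were Arhgef15, the exchange factor also known as ephexin-5, at 0.31 to 22.9 CPM against 46.7 to 108 CPM (log2 fold change -3.22, SE 0.70, edgeR adjusted p 0.00532), Rgs3, which binds the ephrin-B tail through its PDZ domain (-2.61, SE 0.53, 0.00354), and the kinases Yes1 (-1.79, SE 0.36, 0.00313) and Fyn (-1.16, SE 0.27, 0.00738). They were 1 of 19 receptor effectors, 1 of 7 ephrin-B partners and 2 of 4 Src family kinases, and 4 of 14 arterial and 1 of 5 venous genes were lower too. The endothelial markers Cdh5, Kdr and Tek were called lower as well, and their part in these values was not tested. The calls of these signalling genes were not repeated under the alternative settings. In the CD44High libraries Arhgef15 had no count. Against CD44LowKitNeg, where 16% of all genes were called and 8.17% called lower, CD44High libraries were lower in 4 of 19 receptor effectors and higher in 1, Ptpro, a receptor-type phosphatase, which was at 11.5 to 51.9 CPM and had no count in CD44LowKitNeg libraries. Of the 4 Src family kinases, Lyn was higher, at 132 to 213 CPM (log2 fold change 1.87, SE 0.26, edgeR adjusted p 9.43e-06), and Yes1 (-3.09, SE 0.39, adjusted p 2.73e-06) and Src were lower, Src with no count in CD44High and 3.10 to 6.20 CPM in CD44LowKitNeg libraries. The median of that list was -1.91, and 13 of 14 arterial genes were lower. All 7 macrophage markers were called higher in this comparison, and their part in the Lyn and Ptpro values was not tested.

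The genes most like each member were ranked by Pearson's r of log2 CPM over the 22 libraries, which fall into 4 populations, so that r mostly describes differences between the populations. For Efnb2 they were Hmcn1 (r = 0.961), Nckap1 (0.954) and Epas1 (0.947), and for Efna1 they were the basement membrane gene Nid1 (0.987), Prkcdbp (0.985) and Arhgap28 (0.979). For Ephb4 they were the VEGF receptor gene Flt1 (0.987), the laminin gene Lamb1 (0.979) and Klhl4 (0.978), and for Epha2 they were Bcar1 (0.943), Ddah2 (0.94) and Itga9 (0.938). The values were lower for Epha4, led by Ssfa2 (0.857), for Efna5, led by Cpe (0.868), and for Ephb1, led by Rims2 (0.815). Among the members, Efna1 and Ephb4 were most alike (r = 0.947), followed by Efna1 and Efnb2 (r = 0.909).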

How the data were processed

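Raw read counts per gene for 22 libraries were used as the authors deposited them. The study's methods give adaptor clipping with the FASTX toolkit, mapping with STAR and counting with htseq-count, and the submitters' processing notes name the mouse build mm10, FastQC and HTSeq. The annotation and strand setting are not given in the sources used here. Libraries were amplified by PCR without molecular identifiers, so counts are not independent molecules. Groups came from the labels. Low genes were removed by filterByExpr of edgeR (count of 10 in enough libraries, total of 15), and the rest were scaled by TMM and tested with edgeR 4.0.16 quasi-likelihood fits (prior count 0.125) in R 4.3.3, with Benjamini-Hochberg adjustment over all genes tested and calls at an adjusted p under 0.01. CD44LowKitNeg against CD44Neg was fitted on 16 libraries, the other 5 population comparisons on 22, stages on the 10 CD44Neg or 6 CD44LowKitNeg libraries, and the interaction on 11. The standard error is the log2 fold change divided by the root of F. Levels are TMM-scaled CPM over 22 libraries, and levels per kb divide them by the exonic bases of each gene in GENCODE vM21. All 10 members matched RefSeq promoters. The pipeline was tested on simulated data. Alternatives used DESeq2 1.42.0, limma 3.58.1, other filters and scalings, stage, and each library left out in turn. Replicates were compared in 20 pairs and none were duplicates. All members were named. Other family genes were named with values where a population mean reached 10 CPM, and up to 3 called genes of each list by smallest p. Others, such as Bmx, Hey2, Nr2f2, Arhgef15, Rgs3, Yes1, Fyn and Ptpro, were named after their values were seen, to account for the counts. Members and lists were chosen with earlier results of these data known.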

Additional observations from a re-analysis of the deposited data

Results flagged for a closer look

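In groups of 6 or 10 libraries, a highest or lowest library whose gap to the next was large for the range (Dixon's test at 95%, critical value 0.466 for 10 libraries and 0.625 for 6) was found in 13 of 42 groups formed by a gene and a population. Chance gives about 1 in 20 only where values are normally distributed, which does not hold for genes with mostly 0 counts. The 13 groups were therefore not set against that share, and 7 of them were members near the floor of a 0 count. Efnb1 reached 2.94 CPM in CD44Neg replicate 3, against 0 to 0.795 in the other 9, and 0.812 CPM in CD44LowKitNeg replicate 16, where the other 5 had no count. CD44LowKitNeg replicate 14, the only E9.5 library of its group, stood apart for Ephb1 (1.62 CPM), Ephb2 (1.04 CPM) and Ephb3 (0.695 CPM). Ephb2 stood apart in CD44Neg replicate 4 (1.71 CPM), and Ephb3 in CD44Neg replicate 10 (1.34 CPM).

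At higher levels, Epha4 reached 39.0 CPM in CD44Neg replicate 3, with 0 to 8.83 CPM in the other 9. Epha7 reached 19.3 CPM in CD44LowKitNeg replicate 15, with 0 to 4.06 CPM in the other 5. Among the listed genes, Adam10 was at 638 CPM in CD44Neg replicate 6 against 258 to 382 CPM, and Nrp1 was low in CD44Neg replicate 1 at 236 CPM against 356 to 481 CPM. Gja5 was at 938 CPM in CD44LowKitNeg replicate 11 against 220 to 477 CPM, and Aplnr at 108 CPM in CD44LowKitNeg replicate 16 against 0 to 24.7 CPM.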

How the results depend on the processing

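No paired analysis was possible because the groups share no replicate number. Of 1593 member values under alternatives, 1494 kept their direction and side of the threshold, 24 lost a call, 50 gained one and 25 changed sign, 0 of them for a member called in the reported fit. Between CD44LowKitNeg and CD44Neg, 2 members were called under DESeq2 size factors, no filter on low counts, DESeq2's Wald test, a threshold of 0.05, stage as a covariate or limma voom, and 0 with all 22 libraries in 1 fit or with E10 alone. Leaving out libraries gave 1 to 2. Between CD44LowKitPos and CD44LowKitNeg, 1 was called under DESeq2 size factors or no filter, 4 by DESeq2's Wald test, 3 at 0.05 and 3 without the CD44High libraries (chosen after seeing the data), with 0 to 2 when libraries were left out. DESeq2 size factors moved the median of all genes there from -0.02 to -0.16 on the log2 scale. Between CD44LowKitPos and CD44Neg, 0 were called with no filter or stage as a covariate, 2 by DESeq2's Wald test, at 0.05 or without CD44High, and 0 to 2 when libraries were left out. With E11 alone, 2 were called between CD44High and CD44LowKitNeg. In CD44Neg, 1 member (Ephb4) was called at E11 against E9.5 by DESeq2's Wald test or at 0.05, and 1 at E10 against E9.5 by those or with no filter. The cause of these changes was not tested.

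Signs changed for uncalled genes. Of the 12 other family genes, with E10 alone CD44LowKitNeg against CD44Neg gave -0.34 for Efna4 and 0.46 for Epha7, and leaving out libraries gave -2.63 to 0.035 for Epha7. Among the members, leaving out libraries gave -0.11 to 0.46 for Efna5 there, and -3.92 to 1.19 for Ephb1 in CD44LowKitPos against CD44LowKitNeg. In CD44High against CD44LowKitPos it gave -7.31 to 1.26 for Efnb2, -1.90 to 0.72 for Efna5 and -2.98 to 0 for Ephb1. For CD44Neg E11 against E9.5 it gave -0.24 to 0.27 for Efnb2, -2.20 to 6.28 for Ephb1 and -2.55 to 1.66 for Epha4. E10 against E9.5 gave -0.21 to 0.030 for Efnb2 and -0.23 to 0.29 for Efna1. E11 against E10 gave -0.18 to 0.33 for Efnb2, -0.64 to 1.07 for Efna5 and -0.29 to 0.12 for Ephb4. CD44LowKitNeg stages gave -0.41 to 0.79 for Efna5. The interaction gave -0.076 to 0.85 for Efna1, -0.29 to 1.41 for Efna5, -2.11 to 2.46 for Ephb1 and -8.29 to 0.30 for Epha4. Pools of 25 cells and 3 libraries in CD44LowKitPos and CD44High limit the precision, and members near the floor carry little information.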
